A study of Homo sapiens with 18 samples.

Results

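Gene expression was compared between cytochalasin D and ZM447439 in hTERT-RPE1 cells sorted for a 2N DNA content. hTERT-RPE1 is an established human cell line, derived from the retinal pigment epithelium and made immortal by the telomerase gene TERT. Poly-A RNA was sequenced in 3 libraries of 2N cells after cytochalasin D and 3 libraries of 2N cells after ZM447439, which makes 6 of the 18 libraries of the series. The other libraries are 3 of untreated 2N cells and 3 of 4N cells for each of the 3 treatments. Genes were kept where RPKM averaged 0.5 or more across the 18 libraries, which left 13037 of the 57773 identifiers in the table. RPKM is a read number scaled to the length of the gene and to the depth of the library. All cultures were grown in medium with 10% serum and, for the sort, had their DNA stained with a Hoechst dye (2 µg/mL, 60 min). The labels give ZM447439 at 2.5 µM for 24 h and repeat that text on every library. For cytochalasin D neither is stated, so it is not known whether doses and times were matched. The line carries a telomerase transgene in every group. Untreated 2N cells are given below as a level beside the drugs, because both drugs are set against the same 3 untreated libraries.

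Cytochalasin D binds the growing ends of actin filaments and stops their extension, so that the contractile ring cannot divide a cell. Actin monomers bind the coactivator MRTF, which works with the transcription factor SRF, and filament tension acts on the coactivators YAP and TAZ, which work with TEAD factors. ZM447439 inhibits Aurora kinases. Aurora B corrects the attachment of chromosomes to the spindle and is needed for cytokinesis, and Aurora A acts at centrosomes and spindle poles. Either block can leave a cell with a doubled genome. A 2N content is that of a diploid cell in G1 that has not been through a failed division.

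The implied depth was 62608511, 66222368 and 67299049 reads in the cytochalasin D libraries numbered 1, 2 and 3, and 54408873, 64395470 and 51828190 reads in the ZM447439 libraries. Values below are given in the order of these library numbers. Library 1 stood apart in both drugs. Its log2 values correlated with those of libraries 2 and 3 at 0.983 in both cases in cytochalasin D cells and at 0.980 and 0.979 in ZM447439 cells, against 0.995 and 0.994 between libraries 2 and 3 of each drug. Between the drugs the correlations ran between 0.958 and 0.979, all across genes. Counts of genes are therefore also given without both libraries numbered 1. The line's label was checked on 18 markers of retinal pigment epithelium. Of these, 12 were under 0.5 RPKM in all 9 libraries of 2N cells, among them RPE65, RLBP1, LRAT, TYR and TYRP1, the genes of the visual cycle and of pigment. The length in these RPKM includes introns, so genes with long introns fall under that cut-off more easily. In cytochalasin D library 3, CDH2 at 0.56 RPKM held 8539 reads and PMEL at 0.466 RPKM held 603. The keratins KRT8 and KRT18, the cadherin CDH2 and the factor OTX2 were above 0.5 RPKM in all 9, and PMEL in all but cytochalasin D library 3. The span of PMEL overlaps CDK2, so its reads are uncertain as those of a marker. The row of BEST1 was also high, but its span overlaps FTH1, the ferritin heavy chain. The summed level of the 18 markers was 168 to 197 RPKM with cytochalasin D, 199 to 212 RPKM with ZM447439 and 140 to 151 RPKM in untreated cells, and without BEST1 it was 54.9 to 78.3 RPKM, 86.3 to 140 RPKM and 85.7 to 104 RPKM in the same order of groups. Markers of blood cells summed to 27.1 to 37.7 RPKM, 16.9 to 25.1 RPKM and 18.6 to 20.8 RPKM in the same order of groups, nearly all of it CD68, which is found in lysosomes and is not made by blood cells alone. HBB was at 0 in all 9 libraries. The 3 endothelial markers found in the table summed to at most 0.102 RPKM in any 2N library. The 6 mesenchymal markers summed to 468 to 630 RPKM with cytochalasin D, 454 to 626 RPKM with ZM447439 and 782 to 887 RPKM in untreated cells, most of it the intermediate filament VIM.

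Of the 13037 genes tested, 1783 (13.7%) were higher and 3022 (23.2%) lower with cytochalasin D than with ZM447439, at an adjusted p under 0.05 by limma on log2(RPKM + 0.5). Together these 4805 genes were 36.9% of those tested. Few of the differences were large. At least 2-fold differences on that scale were found in 54 of the higher and 96 of the lower genes. The median difference of all genes was -0.04 on the log2 scale. RPKM values are relative to each library's total, and the split depends on how that total is set. With median-ratio scaling, 2243 genes were higher and 2411 lower, so that the share of higher genes among those called was 48.2%, against 37.1% with the deposited scaling. Without both libraries numbered 1, 1394 genes (10.7%) were higher and 2719 (20.9%) lower, and 3664 of these 4113 genes were also called with all libraries. In 2284 genes (17.5%) all 3 cytochalasin D values lay above all 3 ZM447439 values, and in 3596 genes (27.6%) they all lay below.

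**Figure D1:**
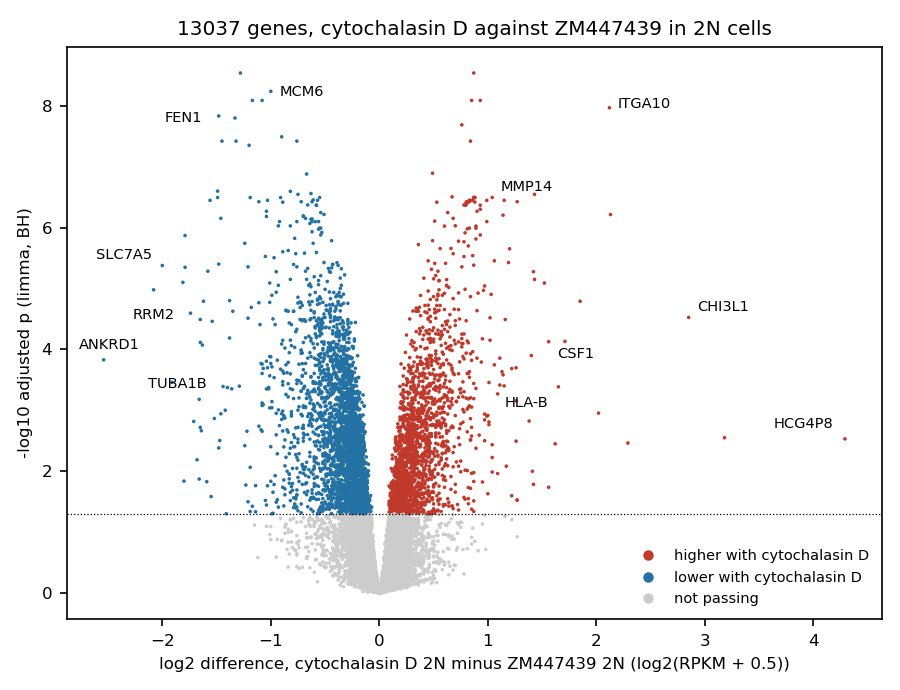
Difference between cytochalasin D and ZM447439 in 2N cells (x axis, log2 difference of log2(RPKM + 0.5)) and its adjusted p from limma (y axis, -log10) for the 13037 genes tested. Each point is 1 gene, the dotted line marks an adjusted p of 0.05, and the lower genes outnumber the higher ones, 3022 against 1783.

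The level in untreated 2N cells was set beside both drugs. Genes were kept on the mean of all 18 libraries, untreated ones included, so some could pass the filter through their untreated level. Of the 1783 genes higher with cytochalasin D, the untreated mean lay below both drugs in 1212 (68%), between them in 434 and above both in 137. Of the 3022 lower genes, the untreated mean lay above both drugs in 2149 (71.1%), between them in 640 and below both in 233. In most called genes the cytochalasin D mean was thus farther from the untreated mean than the ZM447439 mean, on the same side of it.

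Among the genes with the largest positive differences were a secreted glycoprotein, an integrin chain and a growth factor. CHI3L1, a secreted chitinase-like glycoprotein, stood at 22.2, 33.8 and 34.3 RPKM with cytochalasin D, against 1.57, 4.93 and 5.93 RPKM with ZM447439 and 0.584 ± 0.167 RPKM in untreated cells (SD, n = 3). The groups did not overlap, and library 1 was the lowest in each drug. The difference was 2.85 ± 0.34 (log2, SE; adjusted p = 2.98e-05). ITGA10, the α chain of a collagen-binding integrin, had 5.8, 7.56 and 7.82 RPKM with cytochalasin D, against 0.984, 1.37 and 1.35 RPKM with ZM447439 and 0.399 ± 0.0514 RPKM in untreated cells. Every cytochalasin D library lay above every other 2N library, with a difference of 2.12 ± 0.10 (adjusted p = 1.08e-08). CSF1, the growth factor of macrophages, had 9.17, 15.0 and 16.4 RPKM with cytochalasin D, against 3.8, 4.45 and 4.16 RPKM with ZM447439, a difference of 1.56 ± 0.21 (adjusted p = 7.46e-05). DDIT4L, an inhibitor of mTOR signalling, had 7.62, 11.4 and 11 RPKM with cytochalasin D and 1.81, 2.96 and 3.5 RPKM with ZM447439 (log2 difference 1.71, adjusted p = 7.38e-05). SCG2, a secretory granule protein, had 11.7, 7.44 and 6.45 RPKM with cytochalasin D and 1.65, 2.5 and 2.92 RPKM with ZM447439 (log2 difference 1.65, adjusted p = 0.000411). These groups did not overlap either, and in both SCG2 and DDIT4L the untreated mean was the lowest of the 3, at 0.35 and 1.34 RPKM.

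SOD3, the extracellular superoxide dismutase, ZNF467, a zinc finger protein, and OLFML2A, an olfactomedin domain protein, were higher by 1.52, 1.43 and 1.42 on the log2 scale. ZNF467 had 2.61, 2.5 and 2.92 RPKM with cytochalasin D, against 0.49, 0.76 and 0.799 RPKM with ZM447439. BGLAP, the bone matrix protein osteocalcin, was higher by 1.43, but its row lies within that of the read-through gene PMF1-BGLAP, whose reads cannot be told apart from it. PMF1-BGLAP itself differed by 0.15 on the log2 scale. MMP14, a membrane-bound metalloproteinase that cleaves collagen, had 210, 230 and 243 RPKM with cytochalasin D, against 109, 110 and 111 RPKM with ZM447439 and 66.7 ± 1.45 RPKM in untreated cells. Its difference was 1.04 ± 0.07 (adjusted p = 3.21e-07), and its groups did not overlap.

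Among the genes with the largest fitted differences were 3 pseudogene rows of the HLA class I region on chromosome 6, of which HCG4P8 and HCG4B lay above CHI3L1. HCG4P8 had 12.1, 8.49 and 10.0 RPKM with cytochalasin D, from 743, 551 and 662 reads, against 0.0563, 0.0475 and 0.0197 RPKM with ZM447439, from 3, 3 and 1 reads. HCG4B and HLA-K differed by 3.18 and 2.29 on the log2 scale. HCG4P8 overlaps HLA-G and HCG4B overlaps HLA-K, each on the other strand, and the kit keeps no strand, so their reads are uncertain. Reads of similar genes in this region may also be shared between rows. In the 4N libraries of cytochalasin D, HCG4P8 stood at 12, 0.117 and 0.0764 RPKM, and 1 untreated 4N library had 3.82 RPKM. The level thus jumped between libraries of one treatment, and it is not read as a difference between the drugs.

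**Figure D2:**
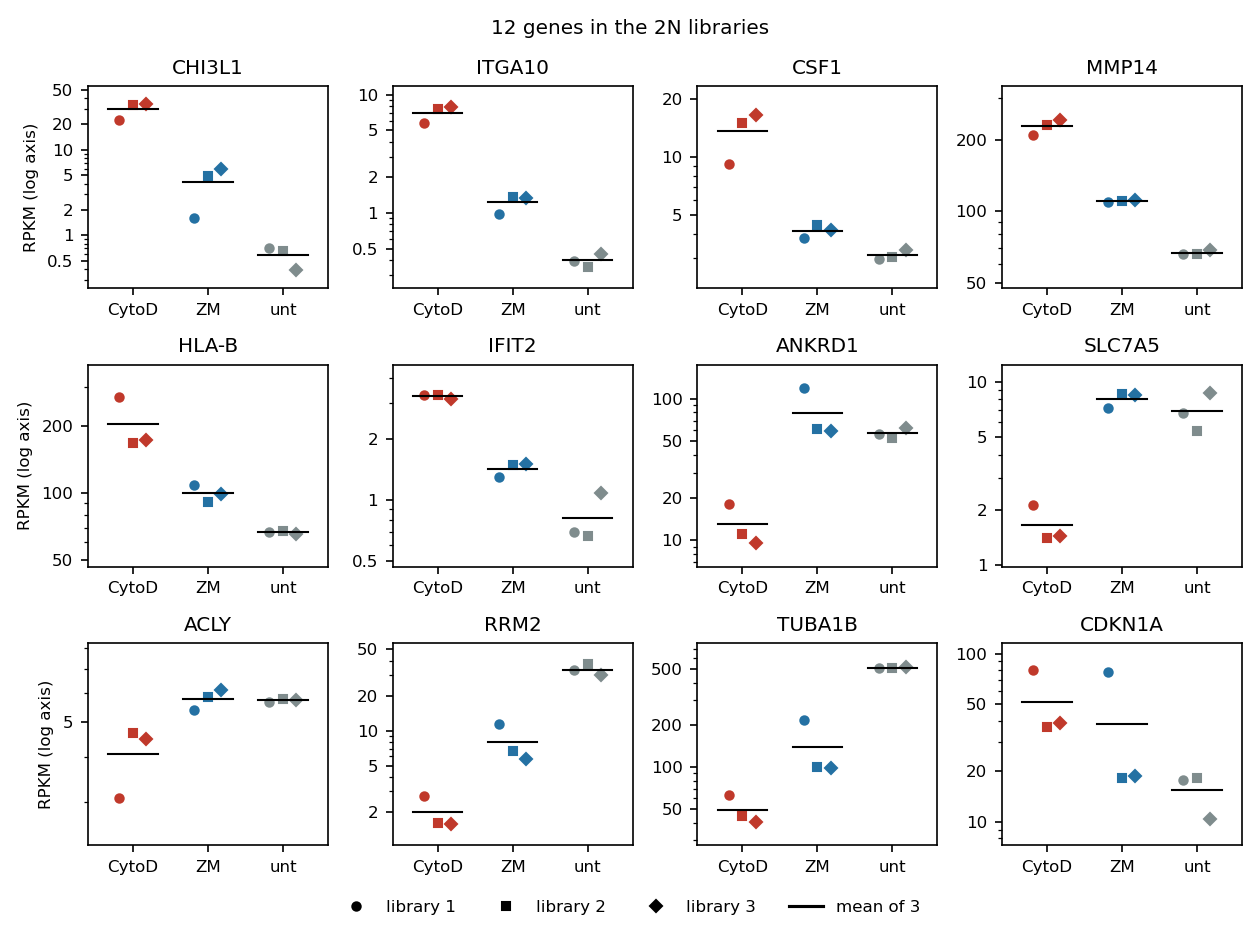
RPKM of 12 genes (log axes, 1 panel a gene) in the 2N libraries after cytochalasin D (CytoD), after ZM447439 (ZM) and without treatment (unt); each symbol is 1 library, marked by its number, and bars are means of 3. ITGA10 and MMP14 are separated by drug in every library, whereas the 2 libraries numbered 1 lie far above the others in CDKN1A, at 80.3 and 77.7 RPKM.

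Among the genes with the most negative differences were a nuclear cofactor, an amino acid transporter, a collagen and a nucleotide reductase. ANKRD1, a nuclear ankyrin-repeat cofactor, had 18.2, 11.1 and 9.62 RPKM with cytochalasin D, against 118, 61.2 and 59.0 RPKM with ZM447439 and 57.0 ± 4.34 RPKM in untreated cells. The groups did not overlap, library 1 was the highest in each drug, and the ZM447439 libraries 2 and 3 lay near the untreated level. The difference was -2.54 ± 0.37 (adjusted p = 0.000148), the most negative of all genes tested. SLC7A5, the light chain of the LAT1 transporter of large neutral amino acids, had 2.12, 1.4 and 1.44 RPKM with cytochalasin D, against 7.2, 8.55 and 8.4 RPKM with ZM447439 and 6.95 ± 1.65 RPKM in untreated cells, a difference of -2.0 ± 0.19 (adjusted p = 4.19e-06). Here the ZM447439 level was again near that of untreated cells. SLC7A5P2, a pseudogene copy of SLC7A5, was lower by 1.79 on the log2 scale and cannot be told apart from its parent with certainty. FSTL3, a secreted inhibitor of activin, had 7.68, 5.7 and 6.04 RPKM with cytochalasin D and 20.2, 24.6 and 26.0 RPKM with ZM447439 (log2 difference -1.79, adjusted p = 1.35e-06).

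CPA4, a carboxypeptidase, had 6.29, 3.42 and 3.21 RPKM with cytochalasin D, against 16.8, 17.2 and 16.4 RPKM with ZM447439 and 5.13 ± 0.21 RPKM in untreated cells (log2 difference -1.91, adjusted p = 0.000347). It is a gene in which ZM447439, and not cytochalasin D, lay far from the untreated level. OXTR, the oxytocin receptor, had 1.25, 0.825 and 0.734 RPKM with cytochalasin D and 7.39, 2.88 and 2.89 RPKM with ZM447439 (log2 difference -1.66, adjusted p = 0.000659). IGFBP3, a binding protein of insulin-like growth factors, had 5.8, 2.63 and 2.57 RPKM with cytochalasin D and 18.8, 9.14 and 9.73 RPKM with ZM447439, a difference of -1.66 ± 0.47 (adjusted p = 0.0134). Without cytochalasin D library 2 or 3, or without ZM447439 library 1, its adjusted p was 0.0506, 0.0554 and 0.0597. The miRNA row MIR3649 also met the rule, from only 2 to 13 reads per library. The row of CD24P4, a processed pseudogene of CD24, met it too and is not described further.

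Genes were next read by lists of known function, as counts of members that passed the test beside the shares over all genes, 13.7% higher and 23.2% lower. Those shares change with the fit. Without both libraries numbered 1 they were 10.7% and 20.9%, and with the library number as a block 16.2% and 26.2%. Of the 13037 genes, 999 were higher and 1533 lower with the 6 libraries of the drugs alone, and 2820 and 4705 with array weights. Without the 6 libraries that stood apart, 2429 were higher and 4156 lower. Leaving out 1 library gave 1335 to 1663 higher and 2279 to 2876 lower. The lists share some genes and were chosen with earlier results of these data known.

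**Figure D3:**
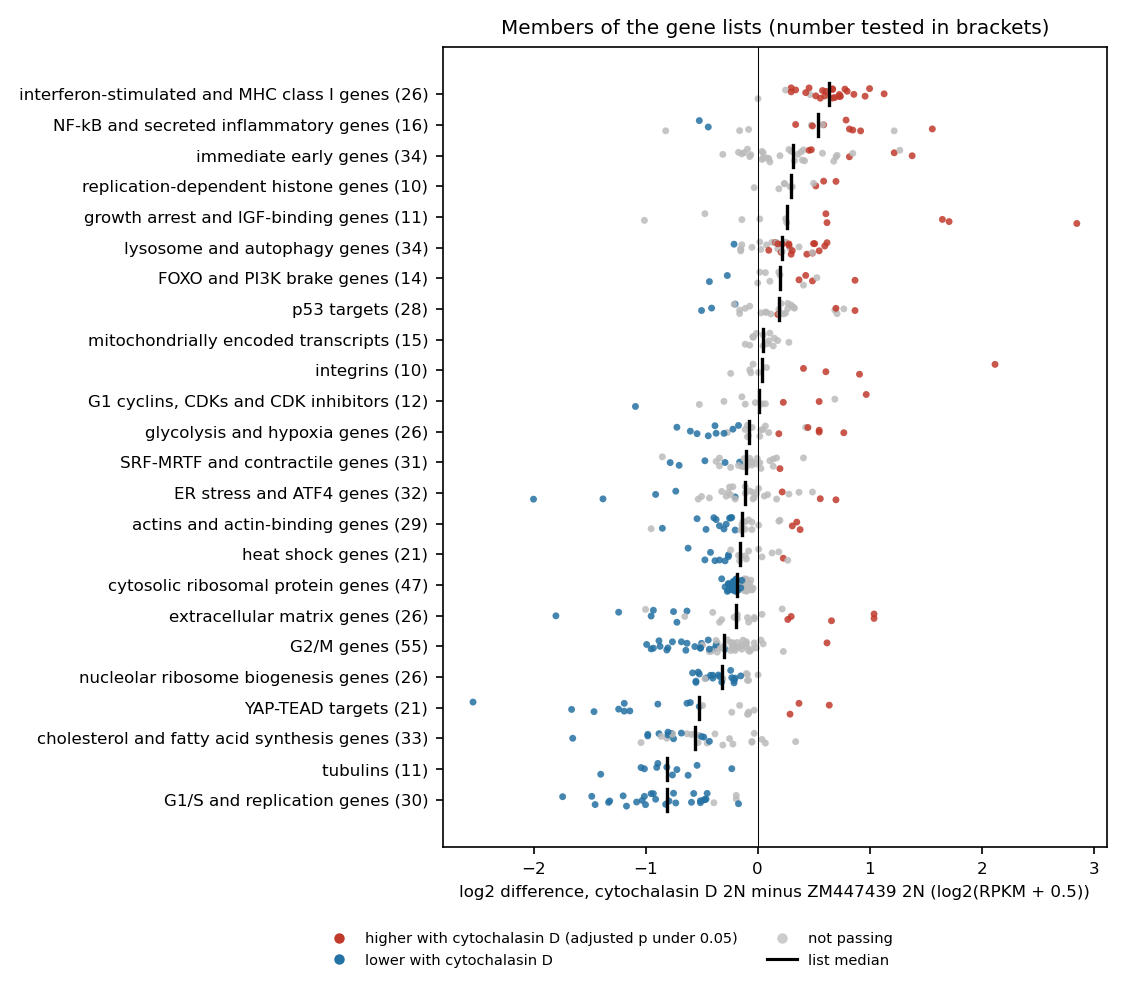
Log2 difference between cytochalasin D and ZM447439 in 2N cells (x axis) for every tested member of 24 gene lists (rows, number tested in brackets). Each point is 1 gene, coloured where it passed the test, and black bars are list medians, which run between 0.64 for interferon-stimulated and MHC class I genes and -0.81 for G1/S and replication genes and for tubulins.

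Genes of the G1/S transition and of DNA replication were lower with cytochalasin D. Of 30 tested members, 27 were lower and none was higher, with a median difference of -0.81. The same count of 27 was lower without both libraries numbered 1. All 30 members tested in RPKM had an untreated mean above both drugs, which the filter over all 18 libraries, untreated cells included, favours. MCM2 to MCM7 form the helicase that unwinds replication origins. MCM6 had 0.361, 0.291 and 0.298 RPKM with cytochalasin D, against 1.22, 1.09 and 1.09 RPKM with ZM447439 and 3.71 ± 0.0528 RPKM in untreated cells, a difference of -1.0 ± 0.04 (adjusted p = 5.8e-09). The 3 groups were wide apart in relation to the spread within each. MCM2 had 0.719, 0.664 and 0.721 RPKM with cytochalasin D, against 2.15, 2.05 and 1.94 RPKM with ZM447439 and 7.31 ± 0.221 RPKM in untreated cells (log2 difference -1.08, adjusted p = 8.18e-09). RRM2, the small subunit of ribonucleotide reductase, had 2.74, 1.61 and 1.57 RPKM with cytochalasin D, against 11.4, 6.63 and 5.7 RPKM with ZM447439 and 33.6 ± 3.62 RPKM in untreated cells (log2 difference -1.74, adjusted p = 2.54e-05). CCNE2, the cyclin that drives CDK2 at the G1/S boundary, was nearly identical within each drug, at 0.225, 0.226 and 0.221 RPKM with cytochalasin D against 0.893, 0.894 and 0.854 RPKM with ZM447439 (log2 difference -0.93, adjusted p = 9.37e-07), but its span overlaps INTS8 and NDUFAF6, whose reads cannot be told apart from it without strand. FEN1, the flap nuclease of lagging strand synthesis, CDC6 and CDT1, which license origins, and E2F1, the transcription factor of this gene set, were lower by 1.48, 1.45, 0.95 and 1.32 on the log2 scale. TK1 (-0.39) and E2F7 (-0.19) were among the members that did not pass. In RNA of pooled cells, fewer cells that express a gene and less RNA in each of them cannot be told apart.

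The promoters of 24 of the list's genes were in the RefSeq table (GRCh38.p14, 250 bases before to 50 after the gene start), against 27305 promoters in all. The E2F words TTTCGCGC or TTTGGCGC were present on either strand in 7 of the 24 (29.2%), against 1.18% of all promoters. Those of MCM6 (chr2:135876394-135876693, minus strand) and MCM2 (chr3:127598161-127598460, plus strand) are shown for the 2 members with the lowest p. Capitals mark the E2F words, of which a match on one strand overlaps a match on the other.
MCM6: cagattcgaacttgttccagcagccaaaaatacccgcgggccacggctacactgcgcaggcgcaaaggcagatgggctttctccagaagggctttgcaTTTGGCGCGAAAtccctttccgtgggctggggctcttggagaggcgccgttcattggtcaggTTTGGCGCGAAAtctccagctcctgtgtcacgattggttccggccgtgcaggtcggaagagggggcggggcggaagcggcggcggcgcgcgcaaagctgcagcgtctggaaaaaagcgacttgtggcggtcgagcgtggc
MCM2: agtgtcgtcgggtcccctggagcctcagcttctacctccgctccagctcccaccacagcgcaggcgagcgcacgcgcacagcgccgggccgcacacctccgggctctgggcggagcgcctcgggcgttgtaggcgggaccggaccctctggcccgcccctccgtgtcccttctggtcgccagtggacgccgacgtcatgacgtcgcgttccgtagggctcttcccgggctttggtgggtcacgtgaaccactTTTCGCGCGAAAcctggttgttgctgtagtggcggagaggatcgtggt
In MCM6 the words began 152, 148, 90 and 86 bases before the gene start. In MCM2 they lay just after it, from base 3.

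G2/M genes, which act in chromosome condensation, the spindle and cytokinesis, were lower less uniformly. Of 55 tested, 20 were lower, 1 was higher and 34 did not pass, with a median of -0.30, and the counts were the same without both libraries numbered 1. In RPM, 29 of 57 tested were lower and 1 higher, with a median of -0.60. With the 6 libraries of the drugs fitted alone, 7 were lower and 0 higher, near the share of lower genes in that fit, 1533 of 13037. When the library number was a block in that fit, 31 were lower, against 1847 of 13037 genes. With array weights 36 were lower, against 4705 of 13037 genes. All 55 tested in RPKM lay below the untreated mean in both drugs. The filter over 18 libraries includes untreated cells and can keep genes through their level there, so this count is partly set by it. With the filter over the 6 libraries of the drugs, 30 G2/M genes were tested, of which 15 were lower and 1 higher. AURKB, the kinase that ZM447439 inhibits, had 1.08, 0.579 and 0.715 RPKM with cytochalasin D, against 2.61, 1.71 and 1.6 RPKM with ZM447439 and 5.59 ± 1.33 RPKM in untreated cells (log2 difference -0.93, adjusted p = 0.000982). AURKA, its paralog, had 0.575, 0.27 and 0.265 RPKM with cytochalasin D and 0.758, 0.384 and 0.302 RPKM with ZM447439, which overlapped (log2 difference -0.16, adjusted p = 0.538), and the sign turned to 0.03 without ZM447439 library 1. MYBL2, a transcription factor that binds the MuvB complex, and MAD2L1, a spindle checkpoint protein, were lower by 0.68 and 0.80, and TOP2A, CCNA2 and CDK1 by 0.99, 0.95 and 0.88. The proliferation marker MKI67 had 1.89, 0.982 and 0.892 RPKM with cytochalasin D and 3.65, 2.27 and 1.8 RPKM with ZM447439 (log2 difference -0.81, adjusted p = 0.0178). Its groups overlapped through cytochalasin D library 1, and its adjusted p was 0.0837 without ZM447439 library 1, 0.0674 without cytochalasin D library 2 and 0.0809 without cytochalasin D library 3. Several mitotic regulators did not pass. CCNB1, the mitotic cyclin, had 1.44, 0.904 and 0.813 RPKM with cytochalasin D and 2.06, 0.936 and 0.798 RPKM with ZM447439 (log2 difference -0.14, adjusted p = 0.668), and without ZM447439 library 1 the difference was 0.16. PLK1, CDC20 and CCNB2 had differences of -0.05, -0.18 and 0.03. The single higher member was CDC25B (0.62), a phosphatase that activates CDK1. Promoters of 35 of 46 list genes in the table (76.1%) held the letters CCAAT on either strand, against 35.7% of all promoters. The other lists searched also had shares above that of all promoters, except the YAP-TEAD list (18.8%). Their shares were 69.2% in the cholesterol list, 60% in the interferon list, 58.3% in the G1/S list and 54.5% in the tubulin list.

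Cyclins, CDKs and CDK inhibitors of G1 moved in both directions. CDK2 had 2.03, 1.55 and 1.33 RPKM with cytochalasin D, against 5.26, 3.6 and 3.37 RPKM with ZM447439 (log2 difference -1.09, adjusted p = 0.00017), but its span overlaps PMEL, and the 2 rows cannot be told apart without strand. The inhibitors CDKN1C, CDKN2D and CDKN2A were higher by 0.97, 0.55 and 0.23. These 4 of 12 tested members passed, 3 higher and 1 lower, and the counts were the same without both libraries numbered 1. With the library number as a block, 3 were higher and 3 lower, and 2 were lower without ZM447439 library 1 or 3. CCND1, cyclin D1, had 28.8, 25.7 and 27.0 RPKM with cytochalasin D, against 69.3, 30.9 and 27.8 RPKM with ZM447439 and 60.8 ± 4.86 RPKM in untreated cells. The groups overlapped, since cytochalasin D library 1 lay above ZM447439 library 3. The difference of -0.52 did not pass (adjusted p = 0.136), whereas it passed with the block (0.0464) and without ZM447439 library 3 (0.0413). Without both libraries 1 it was -0.15 and did not pass (adjusted p = 0.567).

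Targets of p53 differed strongly between library 1 and the others. CDKN1A, the p53-induced CDK inhibitor p21, had 80.3, 36.8 and 38.6 RPKM with cytochalasin D, against 77.7, 18.3 and 18.7 RPKM with ZM447439 and 15.5 ± 4.41 RPKM in untreated cells. Libraries 1 of the 2 drugs lay close together, and libraries 2 and 3 lay higher with cytochalasin D. The difference of 0.69 ± 0.54 did not pass (adjusted p = 0.349), and without ZM447439 library 1 it was 1.37 and passed (adjusted p = 0.0406). Without both libraries numbered 1 it was 1.01 and did not pass (adjusted p = 0.126). MDM2, the ubiquitin ligase that degrades p53, had 4.23, 2.6 and 2.57 RPKM with cytochalasin D and 5.71, 1.4 and 1.4 RPKM with ZM447439 (log2 difference 0.33, adjusted p = 0.529). Without ZM447439 library 1 its difference was 0.90 (adjusted p = 0.0207), and without both libraries 1 it was 0.70 and did not pass (adjusted p = 0.0676). In the list, 3 of 28 tested members were higher and 3 lower, with a median of 0.19. Without both libraries numbered 1, 3 were higher and 1 lower, and with the library number as a block 6 were higher and 3 lower. The count turned on single libraries, since 11 were higher without ZM447439 library 1 and 1 without cytochalasin D library 1, ZM447439 library 2 or ZM447439 library 3. It was 17 with array weights, 20 without the 6 libraries of both sorts that stood apart and 0 with the 6 libraries of the drugs fitted alone. Without ZM447439 library 1 or 3, 1 was lower. BBC3, the pro-apoptotic protein PUMA, had 2.1, 1.3 and 1.43 RPKM with cytochalasin D and 1.23, 0.426 and 0.418 RPKM with ZM447439 (log2 difference 0.87, adjusted p = 0.0105). RPS27L, a ribosomal protein paralog, was lower by 0.41 (adjusted p = 0.0118), with an adjusted p of 0.0557 without ZM447439 library 1 and 0.0855 without both libraries 1.

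Actin genes and actin-binding genes moved in both directions. ACTB, cytoplasmic β-actin, had 132, 133 and 134 RPKM with cytochalasin D, against 143, 127 and 128 RPKM with ZM447439 and 182 ± 13.9 RPKM in untreated cells (log2 difference 0.01, adjusted p = 0.969). The groups overlapped, and the sign turned to -0.03 and -0.02 without ZM447439 library 2 and 3. ACTG1, cytoplasmic γ-actin, had 497, 514 and 516 RPKM with cytochalasin D, against 382, 416 and 435 RPKM with ZM447439 and 421 ± 18.3 RPKM in untreated cells, without overlap (log2 difference 0.31, adjusted p = 0.002). The other higher members were ARPC1B, of the Arp2/3 complex that branches filaments, and GSN, the severing protein gelsolin (0.35 and 0.38). Of 29 tested members 3 were higher and 12 lower, with a median of -0.14, and 3 and 8 without both libraries numbered 1. TMSB10, a thymosin that holds actin monomers, had 482, 492 and 486 RPKM with cytochalasin D, against 691, 602 and 627 RPKM with ZM447439 and 774 ± 7.8 RPKM in untreated cells (log2 difference -0.39, adjusted p = 5.14e-05). ARPC3, another Arp2/3 subunit, was lower by 0.30, and ACTN1, an α-actinin, by 0.54. ACTA2, smooth muscle α-actin, had 3.88, 1.36 and 1.22 RPKM with cytochalasin D and 9.18, 2.45 and 3.03 RPKM with ZM447439, a difference of -0.95 that did not pass (adjusted p = 0.256) and passed with the block (0.0181).

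Genes of SRF with MRTF and of the contractile apparatus mostly did not pass. Of 31 tested, 1 was higher and 5 lower, with a median of -0.10. Without both libraries numbered 1 the counts were 1 and 3, and with the library number as a block 2 and 11. Without cytochalasin D library 3, ZM447439 library 1 or ZM447439 library 3, 3 were also lower, and none was higher without cytochalasin D library 1 or 3 or ZM447439 library 2. SRF had 7.09, 5.9 and 6.1 RPKM with cytochalasin D and 7.59, 7.22 and 6.87 RPKM with ZM447439 (log2 difference -0.17, adjusted p = 0.175, and 0.0455 with the block). TPM1, a tropomyosin that wraps filaments, had 41.5, 35.3 and 33.7 RPKM with cytochalasin D, against 75.7, 57.2 and 58.7 RPKM with ZM447439 and 43.0 ± 2.91 RPKM in untreated cells (log2 difference -0.78, adjusted p = 0.0028). TPM3 was lower by 0.47, CSRP1, a LIM protein of filaments, by 0.70, and the myosin light chains MYL12B and MYL6 by 0.29 and 0.16. TRIP6, a LIM protein of adhesions, was higher by 0.20. Vinculin (VCL, 0.17), zyxin (ZYX, 0.03), the myosin light chain MYL9 (0.02) and TAGLN (-0.85) did not pass, whereas VCL and TAGLN passed with the block (adjusted p = 0.0438 and 0.00741). TAGLN had 116, 51.7 and 49.9 RPKM with cytochalasin D and 190, 91.3 and 102 RPKM with ZM447439, so that library 1 was high in both drugs.

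YAP-TEAD targets were lower in larger part. Of 21 tested members, 11 were lower and 3 higher, with a median of -0.52, and 10 and 3 without both libraries numbered 1. Besides ANKRD1, the lower members included the clotting initiator F3 (-1.46), the matricellular protein CCN2 (-1.19), FSTL1 (-1.19), the growth factor TGFB2 (-1.14), CRIM1 (-0.89), FJX1 (-0.63), the receptor kinase AXL (-0.60), AJUBA (-0.52) and IGFBP3. CCN2 had 108, 51.7 and 48.1 RPKM with cytochalasin D, against 232, 111 and 127 RPKM with ZM447439 and 113 ± 12.8 RPKM in untreated cells. Library 1 was about as high with cytochalasin D as libraries 2 and 3 with ZM447439. Its adjusted p was 0.0458, and it was 0.137 and 0.157 without cytochalasin D library 2 or 3, 0.173 and 0.0632 without ZM447439 library 1 or 3, 0.0609 without both libraries 1 and 0.0574 with median-ratio scaling. CCN1, a close relative, had 138, 80 and 79 RPKM with cytochalasin D and 220, 94.1 and 116 RPKM with ZM447439, a difference of -0.49 that did not pass (adjusted p = 0.374). NT5E, the surface nucleotidase CD73, the exchange factor ARHGEF17 and the angiomotin AMOTL1, which binds YAP, were higher by 0.64, 0.37 and 0.29. For ANKRD1 and CCN2 the ZM447439 libraries 2 and 3 lay close to the untreated mean and the cytochalasin D libraries 2 and 3 far below it.

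The TEAD core letters GGAATG were present on either strand in 5 of 16 promoters of this list in the table (31.2%), against 14% of all promoters and 30% of the promoters of the interferon list, so the word is common. The promoter of ANKRD1 (chr10:90921038-90921337, minus strand) is shown because the gene had the most negative difference, with GGAATG in capitals at 220 and 128 bases before the gene start.
ANKRD1: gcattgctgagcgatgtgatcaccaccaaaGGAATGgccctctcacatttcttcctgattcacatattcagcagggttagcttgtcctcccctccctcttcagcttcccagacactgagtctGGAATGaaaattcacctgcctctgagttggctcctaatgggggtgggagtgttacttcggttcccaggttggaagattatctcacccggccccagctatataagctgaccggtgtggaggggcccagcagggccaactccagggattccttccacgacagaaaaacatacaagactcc

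All 11 tested tubulins were lower with cytochalasin D, with a median of -0.81, and 10 without both libraries numbered 1. TUBA1B, a major α-tubulin, had 63.1, 44.9 and 40.8 RPKM with cytochalasin D, against 218, 99.4 and 99.2 RPKM with ZM447439 and a mean of 513 RPKM in untreated cells (log2 difference -1.40, adjusted p = 0.000423). The groups did not overlap, and both drugs lay well below untreated cells. TUBB, a major β-tubulin, had 86.0, 68.5 and 64.6 RPKM with cytochalasin D and 203, 129 and 128 RPKM with ZM447439 (log2 difference -1.04, adjusted p = 0.000156). TUBG1, the γ-tubulin of centrosomes, and TUBB6 were lower by 0.81 and 0.76, and TUBB3 by 0.23, with an adjusted p of 0.239 without both libraries 1. The α-tubulin genes TUBA1A, TUBA1B and TUBA1C are near-identical, so that their reads may be split between rows. All 11 had an untreated mean above both drugs.

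Interferon-stimulated and MHC class I genes were higher with cytochalasin D almost throughout. Of 26 tested members 23 were higher and none lower, with a median of 0.64, and 20 without both libraries numbered 1. In 24 of the 26 the untreated mean lay below both drugs. IFIT1 and IFIT2 encode antiviral proteins that bind foreign RNA. IFIT1 had 2.93, 2.02 and 1.7 RPKM with cytochalasin D, against 0.567, 0.883 and 0.739 RPKM with ZM447439 and a mean of 0.468 RPKM in untreated cells (log2 difference 1.13, adjusted p = 0.000232). IFIT2 had 3.29, 3.31 and 3.17 RPKM with cytochalasin D, against 1.3, 1.49 and 1.5 RPKM with ZM447439 and 0.811 ± 0.233 RPKM in untreated cells (log2 difference 0.96, adjusted p = 1.07e-05). Neither gene overlapped between the drugs. The spans of both overlap LIPA, which differed by 0.14 and did not pass (adjusted p = 0.104). The class I heavy chains HLA-B, HLA-C and HLA-E present peptides at the cell surface, with B2M as their light chain. B2M had 158, 134 and 127 RPKM with cytochalasin D and 93.6, 85.5 and 95.9 RPKM with ZM447439 (log2 difference 0.60, adjusted p = 0.000602). HLA-B, HLA-C and HLA-E were higher by 1.00, 0.67 and 0.61, but class I genes are similar enough to share reads, and the row of HLA-B overlaps HLA-C.

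Genes of peptide processing and loading were also higher. PSMB9 and PSMB8, subunits of the immunoproteasome, and TAP1, TAP2 and TAPBP, which load peptides, were higher by 0.73, 0.52, 0.73, 0.30 and 0.56. PSMB9 had 5.83, 5.22 and 5.35 RPKM with cytochalasin D, against 3.51, 2.91 and 2.92 RPKM with ZM447439, but its row overlaps PSMB8 and TAP1. Among the transcription factors of the pathway, IRF1 and IRF9 were higher by 0.80 and 0.78. STAT2 (0.25) and IFI35 (0.47) did not pass and passed with the block (adjusted p = 0.021 and 0.00342). HLA-B had 272, 168 and 173 RPKM with cytochalasin D, against 109, 91.6 and 99.2 RPKM with ZM447439, and library 1 was the highest of each drug.

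The core of the interferon-stimulated response element, GAAA, then any 2 bases, then GAAA, was present on either strand in 12 of 20 promoters of the list in the table (60%), against 3.65% of all promoters, and in none of the 24 G1/S, 16 YAP-TEAD and 11 tubulin promoters. The promoters of IFIT1 (chr10:89392373-89392672, plus strand) and TAP1 (chr6:32853655-32853954, minus strand) are shown as those of an antiviral and a peptide-loading member. Capitals mark the element, which is printed here as its reverse complement.
IFIT1: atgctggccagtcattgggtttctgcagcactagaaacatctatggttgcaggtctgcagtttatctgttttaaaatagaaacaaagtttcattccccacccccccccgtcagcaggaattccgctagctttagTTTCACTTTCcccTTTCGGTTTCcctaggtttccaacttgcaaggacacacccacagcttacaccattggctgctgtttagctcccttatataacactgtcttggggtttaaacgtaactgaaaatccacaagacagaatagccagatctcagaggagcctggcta
TAP1: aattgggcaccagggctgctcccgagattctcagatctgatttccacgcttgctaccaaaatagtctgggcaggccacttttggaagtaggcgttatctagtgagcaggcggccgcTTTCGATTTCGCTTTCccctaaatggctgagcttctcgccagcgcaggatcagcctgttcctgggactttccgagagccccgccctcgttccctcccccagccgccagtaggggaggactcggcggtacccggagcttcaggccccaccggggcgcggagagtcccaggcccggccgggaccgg
In IFIT1 the 2 matches began 116 and 103 bases before the gene start, and in TAP1 the 2 overlapping matches began 134 and 128 bases before it.

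NF-kB targets and secreted inflammatory genes were higher in 8 and lower in 2 of 16 tested members, with a median of 0.54, and in 6 and 2 without both libraries numbered 1. Besides CSF1, the higher members included IL1B, the cytokine interleukin-1β, with 5.45, 6.95 and 6.94 RPKM with cytochalasin D against 3.85, 2.7 and 2.98 RPKM with ZM447439 (log2 difference 0.92, adjusted p = 0.00255). NFKBIA and TNFAIP3, inhibitors of the pathway that it induces, were higher by 0.85 and 0.79, with an adjusted p of 0.0683 and 0.0614 without libraries 1. NFKB2, a subunit of the factor itself, had 9.78, 9.09 and 9.78 RPKM with cytochalasin D and 5.48, 6.35 and 6.71 RPKM with ZM447439 (log2 difference 0.59, adjusted p = 0.000244). SOD2, TNFAIP2 and PLAUR were higher by 0.82, 0.49 and 0.34. CXCL8, interleukin-8, had 3.31, 2.02 and 1.91 RPKM with cytochalasin D, against 1.04, 0.624 and 0.571 RPKM with ZM447439 and 1.04 ± 0.751 RPKM in untreated cells. The drugs did not overlap, but the difference of 1.22 ± 0.48 missed the threshold (adjusted p = 0.0624) and passed with the block (0.0102). The lower members were LIF (-0.52) and CCL2 (-0.44), a chemokine of monocytes. Without cytochalasin D library 2 or 3 or ZM447439 library 2 or 3, 1 was lower. In IL6 and PTGS2 library 1 was the highest of each drug. PTGS2, cyclooxygenase-2, had 6.9, 0.897 and 0.826 RPKM with cytochalasin D and 3.27, 0.734 and 0.579 RPKM with ZM447439 (log2 difference 0.48, adjusted p = 0.687, and 0.355 with the block). For IL6 the adjusted p was 0.859, and 0.684 with the block.

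Of 34 immediate early genes, which respond within minutes to growth factors and stress, 5 were higher and none lower, with a median of 0.32. The count of higher genes was near the share over all genes, 13.7%, and is not read as a result about the list. The count was 2 without both libraries numbered 1, 3 without cytochalasin D library 1 or 2 or ZM447439 library 3, and 8 with the block. DUSP4, a phosphatase of MAP kinases, had 7.35, 5.14 and 5.3 RPKM with cytochalasin D, against 3.33, 1.45 and 1.46 RPKM with ZM447439 and 3.02 ± 0.617 RPKM in untreated cells (log2 difference 1.38, adjusted p = 0.0015). BTG1, an antiproliferative cofactor, had 47.6, 57.5 and 52.9 RPKM with cytochalasin D and 24.1, 30.8 and 34.8 RPKM with ZM447439 (log2 difference 0.82, adjusted p = 0.000247). Both held without libraries 1 (adjusted p = 0.000937 and 0.000784). KLF4, FOSL2 and JUND were higher by 1.22, 0.48 and 0.46, with an adjusted p of 0.0939, 0.426 and 0.0628 without libraries 1. FOS had 42.8, 135 and 122 RPKM with cytochalasin D and 48.9, 149 and 124 RPKM with ZM447439, so that library 1 was the lowest of each drug (adjusted p = 0.876, and 0.828 with the block). ATF3, a stress-induced factor, had 3.6, 1.33 and 1.19 RPKM with cytochalasin D and 2.01, 1.37 and 0.868 RPKM with ZM447439 (log2 difference 0.33, adjusted p = 0.582), and the sign turned to -0.08 without cytochalasin D library 1.

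Extracellular matrix genes passed in both directions. Of 26 tested, 5 were higher and 7 lower, near the shares over all genes of 13.7% and 23.2%. The median was -0.19, and without both libraries numbered 1 the counts were 3 and 10. With the library number as a block, 6 were higher and 11 lower. Among them 12 were lower without cytochalasin D library 1, 2 without cytochalasin D library 2 or 3 and 3 without ZM447439 library 1, and 2 with the 6 libraries of the drugs fitted alone. The higher ones were 3 without ZM447439 library 1. FN1, fibronectin, had 583, 416 and 394 RPKM with cytochalasin D, against 275, 198 and 201 RPKM with ZM447439 and a mean of 140 RPKM in untreated cells (log2 difference 1.04, adjusted p = 0.00367). TIMP1, an inhibitor of metalloproteinases, had 39.4, 31.1 and 31.2 RPKM with cytochalasin D and 21.2, 20.5 and 22 RPKM with ZM447439 (log2 difference 0.66, adjusted p = 0.000181), and its row overlaps SYN1. TIMP2 and COL6A1 were higher by 0.27 and 0.30, and MMP14 is the fifth higher member. COL1A1, the α1 chain of type I collagen, had 9.87, 2.32 and 2.45 RPKM with cytochalasin D, against 19.5, 13.5 and 12.4 RPKM with ZM447439 and 4.39 ± 0.574 RPKM in untreated cells. The groups did not overlap, the untreated mean lay between them in libraries 2 and 3, and the difference was -1.80 ± 0.52 (adjusted p = 0.0145). The adjusted p of COL1A1 was 0.0654 and 0.0667 without cytochalasin D library 2 or 3 and 0.0518 without ZM447439 library 1. THBS1, EFEMP1, LOXL2, FBN1 and LOX, which are matrix proteins and collagen cross-linking enzymes, were lower by 0.95, 0.93, 0.75, 0.72 and 0.63. THY1, a surface glycoprotein of fibroblasts, had 40.5, 29.4 and 28.5 RPKM with cytochalasin D and 67.3, 63.9 and 66.8 RPKM with ZM447439 (log2 difference -1.02, adjusted p = 0.000421).

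Most integrins, but not all, join the matrix to actin filaments. Besides ITGA10, ITGA7, ITGB4 and ITGA3, which are chains of laminin receptors, were higher by 0.91, 0.61 and 0.41, so that 4 of 10 tested members were higher and none lower, and 5 without both libraries numbered 1. ITGA7 had 15.0, 14.1 and 14.4 RPKM with cytochalasin D, against 7.49, 7.42 and 7.55 RPKM with ZM447439 and 5.86 ± 0.592 RPKM in untreated cells (adjusted p = 1.19e-05). The ITGA7 row overlaps BLOC1S1 and METTL7B, whose reads cannot be told apart from it without strand. ITGB1, the shared β chain, had 33.4, 26.4 and 24.6 RPKM with cytochalasin D and 29.8, 28.5 and 29.9 RPKM with ZM447439, which overlapped (adjusted p = 0.69). The fibronectin receptor chain ITGA5 had a difference of -0.24 that did not pass. Among 11 tested growth arrest and IGF-binding genes 5 were higher and none lower, 5 also without both libraries 1, and with the block 5 were higher and 2 lower. Without cytochalasin D library 1, 1 was lower. IGFBP3, which was lower, is not on this list but on that of YAP-TEAD targets. The 5 were CHI3L1, DDIT4L, SCG2, PBXIP1 (0.62) and IGFBP6 (0.61). CHI3L1, DDIT4L and SCG2 are also among the 12 largest positive differences described above. The list holds genes of other described functions, such as CHI3L1 and SCG2, and was chosen with earlier results known, so its count is a description. IGFBP5 had 1.66, 0.72 and 0.747 RPKM with cytochalasin D and 5.91, 1.61 and 1.48 RPKM with ZM447439, a difference of -1.01 that did not pass (adjusted p = 0.109) and passed with the block (0.00148).

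Cholesterol and fatty acid synthesis genes were lower in 12 and higher in none of 33 tested members, with a median of -0.56. In only 7 of the 33 did all cytochalasin D values lie below all ZM447439 values, a share below the 27.6% over all genes. Without both libraries numbered 1, 9 were lower and 1 higher, and with the library number as a block 20 were lower and 1 higher. Only 4 were lower without cytochalasin D library 1 or ZM447439 library 3, 5 without ZM447439 library 2 and 1 with the 6 libraries of the drugs fitted alone. The count was 20 with array weights and 26 without the 6 libraries of both sorts that stood apart. In 24 of the 33 the untreated mean lay below both drugs. ACLY, which makes cytosolic acetyl-CoA from citrate, had 3.07, 4.66 and 4.47 RPKM with cytochalasin D, against 5.39, 5.85 and 6.12 RPKM with ZM447439 and 5.74 ± 0.058 RPKM in untreated cells (log2 difference -0.48, adjusted p = 0.00533). The groups did not overlap, and library 1 was the lowest of each drug. SQLE, the squalene epoxidase, had 1.23, 3.09 and 2.73 RPKM with cytochalasin D and 3.26, 4.66 and 4.95 RPKM with ZM447439 (log2 difference -0.80, adjusted p = 0.0205), and FASN, the fatty acid synthase, was lower by 0.98. HMGCS1, which makes HMG-CoA, had 1.82, 8.52 and 7.5 RPKM with cytochalasin D, against 7.09, 12.7 and 14.0 RPKM with ZM447439 and 3.18 ± 0.403 RPKM in untreated cells. Library 1 was low in both drugs, the groups overlapped, and the difference of -1.04 did not pass (adjusted p = 0.0801). It passed with the block (0.041), without cytochalasin D library 2 (0.0366) and without ZM447439 library 1 (0.0496), but not without both libraries 1 (0.118).

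Of 32 tested genes of ER stress and of the ATF4 pathway, 3 were higher and 5 lower, with a median of -0.11, and 1 was higher without ZM447439 library 2 or 3. Both counts were below the shares over all genes, 13.7% higher and 23.2% lower, so the members are given as single genes. The lower members, SLC7A5, SLC7A1 (-0.73), MTHFD2 (-0.91), PSPH (-0.20) and STC2 (-1.38), act in amino acid transport and synthesis, in one-carbon metabolism and, for the hormone stanniocalcin STC2, in secretion. STC2 had 23.9, 25.6 and 25.8 RPKM with cytochalasin D, against 63.3, 69.8 and 64.6 RPKM with ZM447439 and 54.0 ± 11.3 RPKM in untreated cells (adjusted p = 1.58e-05). The higher members were the mTOR inhibitor SESN2 (0.70), the pseudokinase TRIB3 (0.56) and the chaperone PDIA6 (0.22). The ER chaperone HSPA5 had 149, 69.7 and 67.0 RPKM with cytochalasin D and 198, 77.0 and 79.2 RPKM with ZM447439, and library 1 was the highest of each drug (adjusted p = 0.724, and 0.433 with the block). ATF4 (0.06) and DDIT3 (0.28) did not pass. DDIT3, the factor CHOP, had 10.4, 5.64 and 6.28 RPKM with cytochalasin D and 8.0, 5.11 and 4.84 RPKM with ZM447439. Of 21 heat shock genes 8 were lower and 1 higher, the same counts as without both libraries 1. The lower ones included HSPE1 (-0.62) and HSPD1 (-0.47), the mitochondrial chaperonin, and HSPA4 (-0.29) and AHSA1 (-0.42), cofactors of HSP70 and HSP90. HSPA1A, the stress-induced HSP70, had 151, 43.8 and 50.3 RPKM with cytochalasin D and 172, 46.0 and 40.8 RPKM with ZM447439, again with library 1 the highest of each drug (adjusted p = 0.994, and 0.989 with the block).

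Genes of glycolysis and of the hypoxia response were lower in 9 and higher in 5 of 26 tested members, with a median of -0.08, and in 8 and 4 without both libraries numbered 1. The lower members were mainly glycolytic enzymes. PFKP, a phosphofructokinase, had 1.95, 2.21 and 2.33 RPKM with cytochalasin D, against 3.97, 3.86 and 3.79 RPKM with ZM447439 and 4.58 ± 0.041 RPKM in untreated cells (log2 difference -0.72, adjusted p = 3.76e-07). PGAM1 had 39.9, 39.7 and 38.8 RPKM with cytochalasin D and 59.9, 55.0 and 58.1 RPKM with ZM447439 (log2 difference -0.54, adjusted p = 1.32e-06), and LDHA, PGK1 and TPI1 were lower by 0.60, 0.38 and 0.37. PKM, pyruvate kinase, went the other way, with 115, 125 and 130 RPKM with cytochalasin D and 85.7, 91.0 and 94.0 RPKM with ZM447439 (log2 difference 0.45, adjusted p = 3.19e-05). VEGFA, the endothelial growth factor, NDRG1 and the glucose transporter SLC2A3 were higher by 0.55, 0.77 and 0.55. GAPDH had 789, 853 and 877 RPKM with cytochalasin D and 796, 829 and 848 RPKM with ZM447439 (adjusted p = 0.747).

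Lysosome and autophagy genes were higher in 16 and lower in 1 of 34 tested members, with a median of 0.22. Without both libraries numbered 1 the counts were 12 and 4, and with median-ratio scaling 20 and none. With the 6 libraries of the drugs fitted alone 4 were higher. Without ZM447439 library 1, 5 were lower, and none without cytochalasin D library 2 or 3 or ZM447439 library 2 or 3. In 32 of the 34 the untreated mean lay below both drugs. CTSB, a lysosomal cysteine protease, had 38.3, 38.3 and 37.3 RPKM with cytochalasin D, against 23.2, 25 and 26.7 RPKM with ZM447439 and 20.8 ± 0.218 RPKM in untreated cells (log2 difference 0.60, adjusted p = 9.45e-07). PSAP, the precursor of the saposins that help degrade sphingolipids, had 149, 164 and 158 RPKM with cytochalasin D and 76.7, 111 and 125 RPKM with ZM447439 (log2 difference 0.62, adjusted p = 0.00215). The enzymes CTSD, CTSA, GAA and GUSB were higher by 0.51, 0.55, 0.49 and 0.31, and the lower member was ATG9A (-0.21), a membrane protein of autophagy. CD68 was higher by 0.59 (adjusted p = 0.0137), with an adjusted p of 0.0522 and 0.0627 without cytochalasin D library 2 or 3 and 0.0637 without ZM447439 library 1. Of 14 FOXO and PI3K brake genes 4 were higher and 2 lower, and 2 and 2 without both libraries 1. Without cytochalasin D library 1, 2 were higher. The lower calls were 0 without cytochalasin D library 1 or 2 or ZM447439 library 2 or 3 and with the 6 libraries of the drugs fitted alone, and 1 without cytochalasin D library 3. FOXO4 had 2.16, 1.96 and 2.2 RPKM with cytochalasin D, against 1.12, 1.65 and 1.57 RPKM with ZM447439 and 0.384 ± 0.0815 RPKM in untreated cells (log2 difference 0.43, adjusted p = 0.00209), and IRS1, an adaptor of the insulin receptor, was higher by 0.37. PIK3IP1 and PINK1 were lower by 0.43 and 0.27.

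Genes of the ribosome and of its assembly were lower, by small amounts. Of 47 cytosolic ribosomal protein genes 28 were lower and none higher, with a median of -0.18. The count of lower genes was 21 without both libraries numbered 1, 22 with median-ratio scaling, 12 with quantile normalization and 5 with the 6 libraries of the drugs fitted alone, so that it depends on the scaling and on the libraries fitted. RPL35 had 41.3, 41.2 and 41.7 RPKM with cytochalasin D, against 51.7, 47.4 and 50.7 RPKM with ZM447439 and 67.9 ± 2.31 RPKM in untreated cells (log2 difference -0.27, adjusted p = 0.000295). Of 26 nucleolar genes of ribosome biogenesis 19 were lower and none higher, with a median of -0.32, and 17 without libraries 1. NOP56, a core protein of box C/D particles that guide rRNA methylation, had 7.94, 7.58 and 7.4 RPKM with cytochalasin D, against 11.9, 11.3 and 11.1 RPKM with ZM447439 and 23.3 ± 1.64 RPKM in untreated cells (log2 difference -0.55, adjusted p = 5.99e-05). NHP2, of the box H/ACA particles, was lower by 0.53. The 15 mitochondrially encoded transcripts differed by -0.11 to 0.28, and none passed by limma, with 0 at an unadjusted p under 0.05. MT-CO1 had 5007, 4514 and 5103 RPKM with cytochalasin D and 4238, 4644 and 4324 RPKM with ZM447439, and its difference of 0.15 turned to -0.02 with quantile normalization. All 15 lay above the untreated mean in both drugs. Of 10 histone genes of the replication-dependent clusters 3 were higher and none lower, 1 without cytochalasin D library 1 or both libraries 1 and 5 with the block. H2AC25 had 12.1, 11.4 and 14.3 RPKM with cytochalasin D and 6.97, 8.36 and 9.22 RPKM with ZM447439 (log2 difference 0.59, adjusted p = 0.00158). HIST2H2AA3 was higher by 0.70 (adjusted p = 0.0164), with an adjusted p of 0.0717 without cytochalasin D library 1 and 0.145 without both libraries 1. Most transcripts of these genes lack a poly-A tail, and only those with one were measured.

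**Figure D4:**
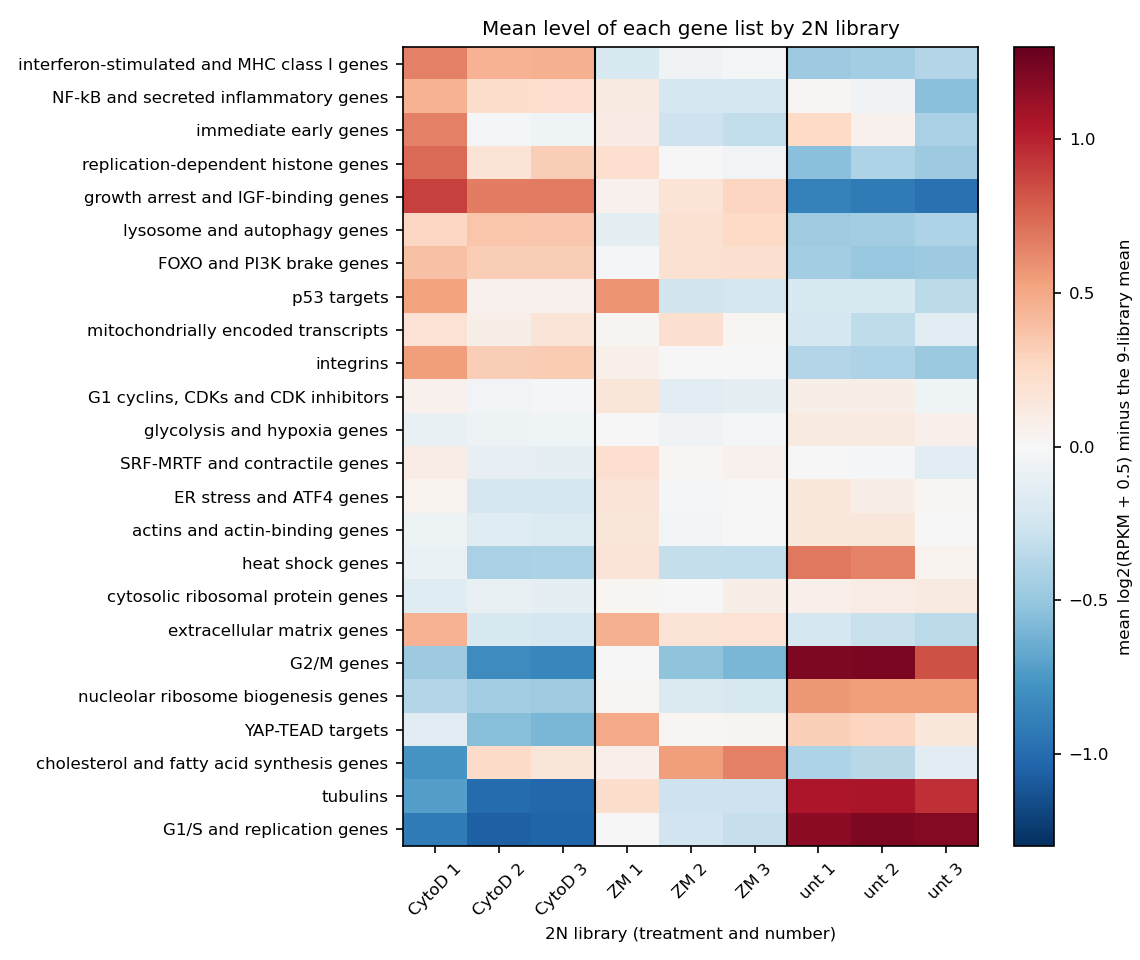
Mean level of each gene list (rows) in each 2N library (columns), as the mean of log2(RPKM + 0.5) minus the mean of the 9 libraries, in colour. Libraries 1 of both drugs are the highest in p53 targets, at 0.52 with cytochalasin D and 0.58 with ZM447439, whereas G1/S genes and interferon genes are ordered by drug in every library.

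The plot of list levels by library shows each list's level beside the drug and the library number. The mean level of the G1/S genes relative to the 9 libraries was -0.91, -1.06 and -1.04 with cytochalasin D, against -0.01, -0.25 and -0.30 with ZM447439 and 1.16, 1.21 and 1.19 in untreated cells. That of the interferon genes was 0.66, 0.45 and 0.46 with cytochalasin D, against -0.20, -0.05 and -0.02 with ZM447439 and -0.47, -0.45 and -0.38 in untreated cells. In both lists the drugs were separated by more than any gap within a drug. The p53 targets stood at 0.52, 0.06 and 0.06 with cytochalasin D and 0.58, -0.24 and -0.22 with ZM447439, and the cholesterol genes at -0.77, 0.25 and 0.16 with cytochalasin D and 0.07, 0.54 and 0.66 with ZM447439. Library 1 was the highest of each drug in the p53 list and the lowest of each drug in the cholesterol list. Among the 4805 genes called, library 1 was the nearest of its group to the untreated mean in 49.3% with cytochalasin D and 60.5% with ZM447439. The part of library number in these lists was otherwise not tested.

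Marker genes moved with the drugs in part. KRT8, KRT18, PMEL and CDH2 were lower with cytochalasin D among the 6 tested epithelial markers, and none was higher; 3 were lower without both libraries numbered 1. The count was 1 without cytochalasin D library 2 or 3 or ZM447439 library 1, and with the 6 libraries of the drugs fitted alone. KRT18 had 64.9, 46.9 and 44.8 RPKM with cytochalasin D, against 121, 71.9 and 77.0 RPKM with ZM447439 (log2 difference -0.76, adjusted p = 0.0385, and 0.0898 without both libraries 1). PMEL was lower by 0.76, but its row overlaps CDK2 and held nearly the same read numbers. With cytochalasin D the PMEL row had 839, 666 and 603 reads and the CDK2 row 763, 618 and 537. With ZM447439 the PMEL row had 1757, 1431 and 1086 reads and the CDK2 row 1722, 1396 and 1052. The call of PMEL thus cannot be told apart from that of CDK2. CDH2 was lower by 0.43 (adjusted p = 0.0189). The adjusted p of CDH2 was 0.0675 and 0.0855 without cytochalasin D library 2 or 3 and 0.0867 without ZM447439 library 1. Whether the makeup of the sorted cells took part in other differences was not tested.

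The difference between the drugs in 2N cells was compared with that in 4N cells by an interaction term. No gene passed by limma (0 of 13037), 753 genes (5.78%) had an unadjusted p under 0.05, and the lowest adjusted p was 0.361. Of the 4805 genes called in 2N cells, 4749 (98.8%) had the same sign in 4N cells, and across genes the 2 sets of differences correlated at 0.86. The sorts of one treatment and number share a name in the labels and may share a culture, so this is a description. The absence of calls depends on libraries 1, since 2 genes passed without the cytochalasin D 2N library 1 and 267 without the ZM447439 2N library 1. The difference of ANKRD1 was -2.54 in 2N and -2.72 in 4N cells, and that of ITGA10 2.12 and 2.40. The median difference of the G2/M list was -0.30 in 2N and -0.64 in 4N cells.

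**Figure D5:**
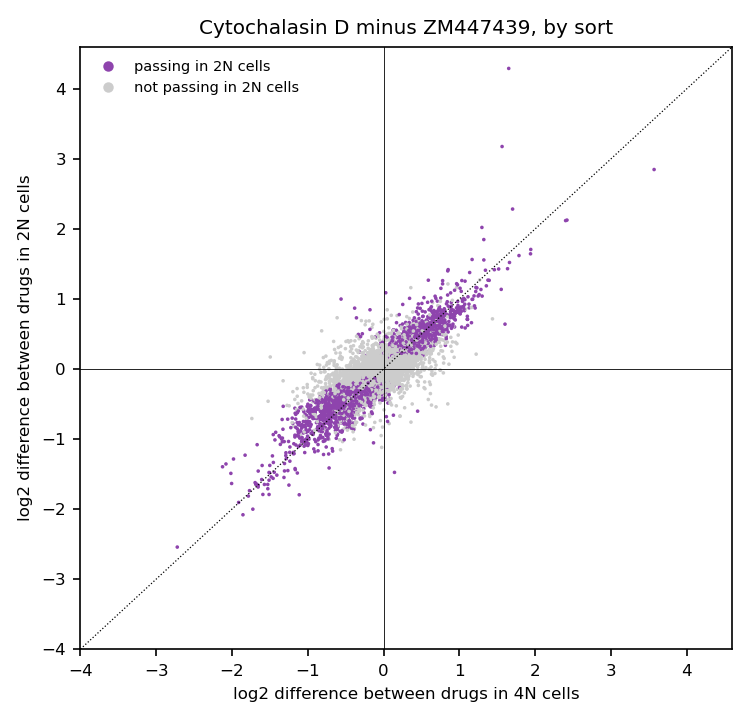
Each gene's difference between cytochalasin D and ZM447439 on the log2 scale, with 4N cells on the x axis and 2N cells on the y axis, for the 13037 genes tested. Each point is 1 gene, purple where it passed in 2N cells, the dotted line marks equal differences, and most purple points lie in the 2 quadrants of equal sign (4749 of 4805).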

How the data were processed

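Poly-A RNA of sorted hTERT-RPE1 cells was sequenced in 18 libraries, 3 in each of 6 groups. The authors deposited RPKM values per gene. Per the submitters' processing notes, CASAVA 1.8.2, TopHat2 and edgeR were used with hg19, with no role or order; which program counted the reads was not stated. Per the labels, the kit keeps no strand. Many named genes overlap the span of another gene, and not every overlap is given with its gene. Examples are MCM2 with TPRA1, TUBG1 with RETREG3, RPS27L with LACTB and MDM2 with CPM. The RPKM are per kilobase of genomic span, introns included: with that length, 88.95% to 89.48% of values under 200 reads were whole reads within 0.05 reads, against 11.74% to 12.65% with exon length and 10% by chance. Genes with long introns thus have low RPKM, and levels are not compared between genes. The implied depths were 51134741 to 78293943 reads. Depth was used for read numbers only.

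Symbols matched 90.59% of identifiers. Genes averaging 0.5 RPKM or more were tested with limma 3.58.1 (R 4.3.3) on log2(RPKM + 0.5), 1 mean per group over all 18 libraries, two-sided, with Benjamini-Hochberg adjustment over 13037 genes and a threshold of 0.05. All adjusted p-values are from that test, and errors of log2 differences are SE with 3 libraries per group; this scale understates differences of low genes. An exact permutation test of 3 against 3 cannot go below p = 0.10. The series' design text calls the libraries biological replicates without saying what separates them, so p-values measure the spread between these libraries. Deviations of same-numbered libraries of the 2 drugs correlated at 0.48, 0.23 and 0.31, and those of different numbers at -0.40 to 0.32, so the number was used as a block in an alternative fit. In untreated cells library 3 was taken as the one that stood apart, which a block over all 18 libraries does not allow for.

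The genes named are the 12 with a symbol and the largest difference in each direction among called genes whose groups did not overlap, the 2 lowest p of each list, and a set of anchors. Other list members are named as examples and were chosen after their values were seen. The comparison, the lists and the tests were chosen with earlier results of these data known. Some genes met by this rule or on these lists are counted but not reported by name here. Promoters are from RefSeq GRCh38.p14 and gene overlaps from GENCODE, used for names only. Python 3.11.15, pandas 2.3.3 and numpy 2.4.6 were used.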

Additional observations from a re-analysis of the deposited data

How the results depend on the processing

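Against 4805 genes called (1783 higher, 3022 lower), 7327 were called without a filter on low values (3664 higher), 7373 in RPM (3178 higher), 2532 with the 6 libraries alone (999 higher, 1533 lower) and 7525 with array weights (2820 higher, 4705 lower). With the library number as a replicate block, 5531 genes were called (2112 higher, 3419 lower), 4762 of them shared with the 4805, and 3082 with the block and the 6 libraries alone (1847 lower). Leaving out 1 library gave 3614 to 4536 calls. For the difference between sorts, against 0 genes, 4 passed without a filter, 2041 with array weights, 1621 without the 6 libraries that stood apart and 0 to 267 without 1 library. The cause was not tested.

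Over the named genes, 1911 comparisons with an alternative were made. Of these, 1830 kept direction and side of the threshold, 47 lost the call, 28 gained it and 6 changed sign. The sign changes were MT-CO1 with quantile normalization (-0.02), AURKA (0.03) and CCNB1 (0.16) without ZM447439 library 1, ACTB without ZM447439 library 2 (-0.03) or 3 (-0.02), and ATF3 without cytochalasin D library 1 (-0.08), none of which had passed. Without 1 library the difference ran between -0.33 and 0.03 for AURKA, -0.33 and 0.16 for CCNB1, -0.03 and 0.06 for ACTB, and -0.08 and 0.56 for ATF3. Of the 87 genes taken by the naming rule, the block over all 18 libraries changed the call of CCND1, SRF, HMGCS1 and CXCL8, as given above. With the block and the 6 libraries alone, ARPC3 (adjusted p = 0.0571), RPL32 (0.0601), FOXO4 (0.0622) and HIST2H2AA3 (0.0523) were among those that lost the call, and CCN1 (0.0433), HMGCS1 (0.0492) and CXCL8 (0.0067) among those that gained it. With 3 libraries a group, their number limits the precision, and values of a few reads, such as those of MIR3649, are the least certain.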

Other observations

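A set of 5 further gene groups was looked at after values had been seen, so their counts are descriptions, beside 13.7% higher and 23.2% lower over all genes. All 8 subunits of the CCT chaperonin, which folds actin and tubulin, were lower with cytochalasin D than with ZM447439, with a median log2 difference of -0.36, with all 8 without both libraries numbered 1 and 4 with the 6 libraries of the drugs fitted alone. Of 33 proteasome subunits, a group that leaves out the immunoproteasome subunits PSMB8 and PSMB9, 26 were lower and none higher (median -0.23, with 22 lower without libraries 1 and 15 with the 6 libraries of the drugs fitted alone), and of 19 aminoacyl-tRNA synthetases, which charge tRNAs, 12 were lower and none higher (median -0.24, and 11 without libraries 1). Of 79 nuclear-encoded genes of the respiratory chain 40 were lower and none higher (median -0.15, with 30 without libraries 1 and 21 with the 6 libraries alone). ATP5MC1, a subunit of the membrane ring of ATP synthase, had 4.98, 5.25 and 5.18 RPKM with cytochalasin D and 10.7, 9.75 and 10.0 RPKM with ZM447439, without overlap (log2 difference -0.92, adjusted p = 7.97e-07 by limma). The nuclear lamina genes split: TMPO, LMNB2 and LMNB1 were lower by 0.81, 0.64 and 0.55, whereas LMNA, which encodes lamins A and C, and EMD, emerin, were higher by 0.54 and 0.18. The call of both was lost without cytochalasin D library 1 or 3, without ZM447439 library 2 or 3 and with the 6 libraries alone, and that of 1 of them without cytochalasin D library 2 or ZM447439 library 1.

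By annotated type, 16.6% of 7750 protein-coding genes were higher and 27.5% lower with cytochalasin D. Of 283 lincRNA genes 17.7% were higher and 10.2% lower, of 1328 antisense genes 15.1% and 16%, and of 1839 processed pseudogenes 2.72% and 24.8%. Reads of an antisense gene cannot be told apart from those of its partner, nor those of a processed pseudogene from its parent with certainty.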
